A study of Mus musculus with 132 samples.

Results

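The translation initiation factor genes of the mouse were followed in single blastomeres, the cells of the cleaving embryo, at the stages of 8 and 32 cells. They were taken by name: every gene whose symbol begins with Eif1 to Eif6, without the sex-linked Eif2s3x, Eif2s3y and Eif1ax and without pseudogenes. The rule found 53 genes of the 32245 in the table, and 52 of them lie on an autosome. The remaining gene, Eif2c5, is annotated as a long non-coding RNA on the X chromosome and is not a translation initiation factor. It is kept in the counts because the naming rule holds it, and its only counts were in 1 8-cell control cell.

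The embryos came from C57BL/6 x DBA F1 females mated with C57BL/6 x DBA F1 males after hormone-induced ovulation. They were flushed at the 2-cell stage (E1.5) and cultured in KSOM medium with either a synthetic mimic of the microRNA miR-381-3p or, at equal concentration, a control mimic of scrambled sequence. Concentrations of 5 µM and 10 µM were used; the labels do not give the dose of each cell, and by the text on the study's outcomes the 8-cell embryos had 10 µM and the 32-cell embryos 5 µM, so stage and dose cannot be told apart. Cells were isolated at the 8-cell stage (E2.5) or the 32-cell stage (E3.5) and sequenced by Smart-seq2, a full-length poly(A) RNA method. The groups held 30 8-cell control cells, 24 8-cell mimic cells, 39 32-cell control cells, and 39 cells from 32-cell mimic embryos. Each group was drawn from 3 to 5 embryos, and the labels name no embryo, so each group counted as 1 sample and no test between groups was made.

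The cells had between 544866 and 3461022 counts and between 3243 and 8983 genes with a count. Levels are given as counts per 1000000 counts (CPM), with the 13 mitochondrial genes left out and the counts of a group's cells summed. The 95% intervals are exact Poisson intervals and cover counting error only, since Smart-seq2 reads carry no molecular identifiers. For a group with a count of 0 the limit given is 3 counts of its total, 0.0527 to 0.0971 CPM, which is lower than the upper end of the exact interval, 0.0648 to 0.119 CPM.

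Some features of the cells touch the results below and are given first. Cells with more counts of Y-linked genes than of Xist made up 39 of 39 32-cell control cells, whereas Xist was above the Y-linked genes in 39 of 39 mimic cells of that stage. Among 8-cell embryos, cells of both kinds were present in both treatments: 7 Y-linked and 23 Xist cells in the control, and 8 Y-linked, 14 Xist and 2 cells with neither in the mimic group. At the 32-cell stage the treatment and this difference between embryos therefore cannot be told apart. Of the 8-cell mimic cells, 3 had fewer than 5000 genes with a count (3243, 4614 and 4881), while every other cell of the series had at least 5919. The numbers in the cell titles also run in separate blocks: 28 and 2 cells in the 8-cell control group, 24 and 15 in the 32-cell control group, and 18, 12 and 9 in the 32-cell mimic group. The blocks of a group were at least 1.5-fold apart for 4 of 44 members in 32-cell control and for 14 of 46 in 32-cell mimic cells, counting members at 20 CPM in a block. The share of all genes with blocks so far apart was not computed, and the mimic group has more blocks to compare. Values within blocks are given for the members whose description they change most. Clustering without the initiation factor genes separated the 32-cell cells into 38 ICM-like cells, which had the higher level of all 9 inner cell mass markers such as Nanog, and 40 TE-like cells, which had the higher level of all 9 trophectoderm markers such as Krt8. By fold, Tbx15 and Otx2 led the former and Zfp185 and Abcb1b the latter. The ICM-like share was 64.1% (exact binomial interval 47.2 to 78.8) of control cells and 33.3% (19.1 to 50.2) of mimic cells. With classes set by the marker score it was 64.1% of control and 43.6% (27.8 to 60.4) of mimic cells. These intervals count each cell as independent, which cells of the same embryo are not, so the shares were not compared by a test. Of 8 cumulus and granulosa cell markers, 5 to 6 were at 0 in each group and their summed level was 2.37 to 17.4 CPM.

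Translation initiation brings a ribosome to the start codon of an mRNA. eIF2 carries the initiator tRNA to the small ribosomal subunit and is reloaded with GTP by eIF2B, and stress kinases block that reloading by phosphorylating eIF2. eIF4E binds the mRNA cap and, with the scaffold eIF4G and the helicase eIF4A, recruits the small subunit through eIF3. The eIF4E-binding proteins, encoded by Eif4ebp1 to Eif4ebp3, hold eIF4E away from eIF4G until the mTOR kinase phosphorylates them. eIF1, eIF1A and eIF5 control start codon choice, eIF5B joins the large subunit, eIF6 keeps free large subunits apart from small ones, and eIF5A helps ribosomes through difficult peptide bonds. In early cleavage the embryo moves from proteins made on stored maternal mRNA to proteins made on its own transcripts.

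Since a microRNA pairs with its targets mainly through its seed, bases 2 to 8, the 3′ UTRs of the members were searched for the matching letters. The mature sequence is printed below from RefSeq (chr12:109726870-109726891, plus strand, GRCm38.p6) with the seed in capitals. Beneath it are the matches in the longest annotated 3′ UTR of 6 members that the results turn on, 5′ to 3′ on the mRNA strand from GRCm38, with the match in capitals.
miR-381-3p: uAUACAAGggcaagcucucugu
Eif4ebp2 (chr10:61430957-61430964, minus strand): tcctttggCTTGTATAggttatct
Eif1 (chr11:100321455-100321462, plus strand): cctcacagCTTGTATAatgtaatc
Eif4g3 (chr4:138206591-138206598, plus strand): gtaaacaaCTTGTATAatagaaaa
Eif4e (chr3:138557395-138557401, plus strand): ctggctgtCTTGTATgagacccc
Eif4g2 (chr7:111071958-111071964, minus strand): tttatataCTTGTATctatcaat
Eif5b (chr1:38054575-38054581, plus strand): tagcttgaCTTGTATccaaaaat
The 7 letters CTTGTAT pair with the seed, and in the 8-base matches of Eif4ebp2, Eif1 and Eif4g3 an A follows them. Searched on the mRNA strand only, 10 of the 52 members with an annotated 3′ UTR held the 7-base match (19.2%), against 11.5% of all 20775 genes with one and 14.1% of the 7885 such genes at 20 CPM or more in a group. The 8-base match was held by 3 members (5.77%), against 3.11% of all genes and 3.78% of those at 20 CPM. With any annotated 3′ UTR searched, these shares were 3.47% and 4.45%. The other 4 members with a 7-base match were Eif3a, Eif4a1, Eif4a2 and Eif5a2. A match describes letters in a UTR and does not show that the site is used, nor that the embryos' transcripts include it.

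The members took 2.4% of the pooled counts in 8-cell control cells and 2.59% in 8-cell mimic cells, and 1.81% and 1.95% in the 32-cell groups. In single cells the share ran from 2.15% to 2.66%, 2.26% to 2.84%, 1.51% to 2.09% and 1.63% to 2.36% in the same order. Each control cell at the 8-cell stage was thus above each control cell at the 32-cell stage, while the mimic cells of the stages overlapped. At 20 CPM or more in at least 1 group were 48 members, and 5 were lower in every group: Eif2ak2, Eif2c5, Eif3j2, Eif4e1b and Eif4ebp3.

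Eif5a had the highest level per kb of exon in every group, at 1134, 1557, 1469 and 1576 CPM per kb in 8-cell control, 8-cell mimic, 32-cell control and 32-cell mimic cells. The order below it differed by stage. At the 8-cell stage Eif6, Eif3c and Eif5 followed in control cells, with 384, 376 and 359.6 CPM per kb. In 32-cell control cells the second place was taken by the repressor Eif4ebp1 with 306.3 CPM per kb, followed by Eif4a1 with 219.6 and Eif2s2 with 192.6. Eif4ebp1 was also second in 32-cell mimic cells, with 460.7 CPM per kb. Cells of a group spread widely around these values, and neighbours such as Eif6 and Eif3c differed by far less than the spread between cells.

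The first question was how the transcripts change from the 8-cell to the 32-cell stage. Changes are differences of log2(CPM + 1) between the pooled groups, and a member counted as past the fold when it differed at least 2-fold on this scale with 20 CPM or more in either group. In control cells 8 of the 46 members at that level were at least 2-fold lower at the 32-cell stage, against 20.1% of all 7469 genes, and 2 were at least 2-fold higher, against 30%. In mimic cells 8 of 45 were lower, against 18.8% of 7594 genes, and 2 were higher, against 29.1%. The share of lower members was thus near the background, and the share of higher ones was under it. The median change of the members was -0.53 in control and -0.46 in mimic cells, beside 0.20 and 0.20 for all genes. Below 0 were 32 of 46 members in control cells (69.6%), beside 44.5% of all genes, and 36 of 45 in mimic cells (80%), beside 44.4%. In the 43 members measured in both treatments, 28 were below 0 in both, 6 were above 0 in both and 9 differed in sign. Past the fold in both treatments were Eif4e, Eif5b and Eif6, all lower, and Eif4ebp1, which was higher. The shares of all genes with the same sign, or past the fold, in both treatments were not computed. Agreement between the treatments is therefore not shown to be particular to the members.

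**Figure D1:**
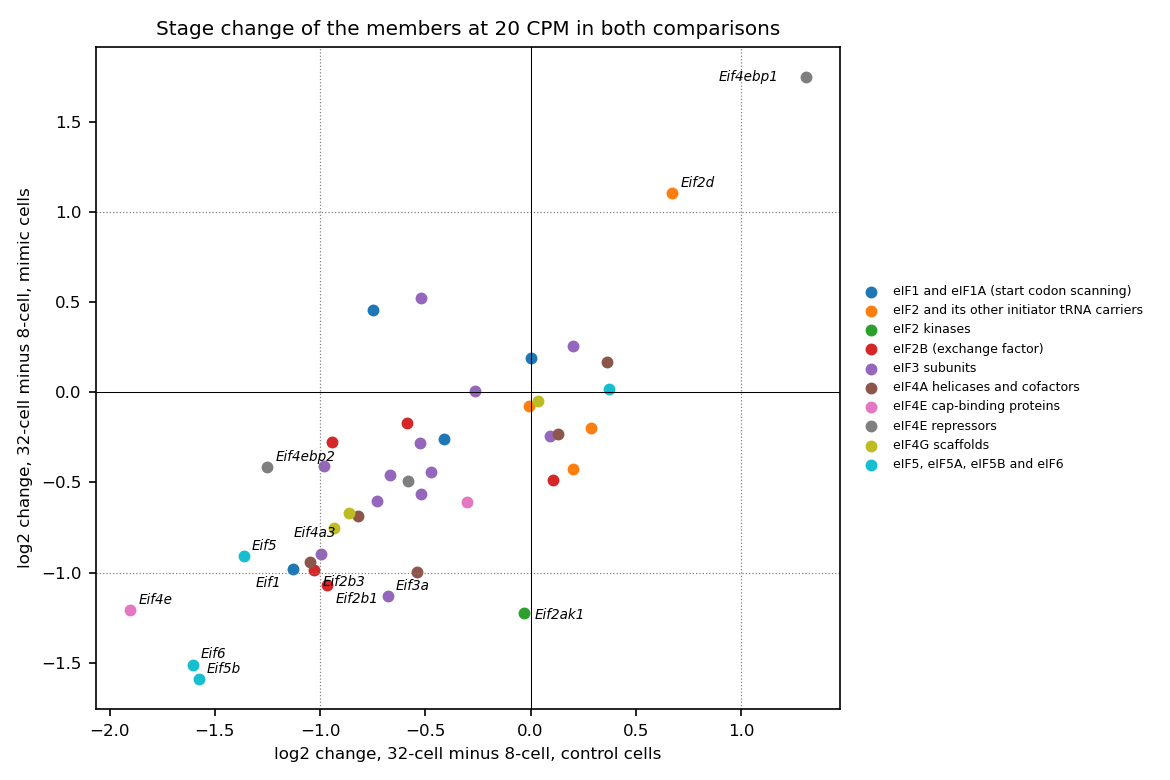
Log2 change from the 8-cell to the 32-cell stage in control cells (x axis) and in mimic cells (y axis) for the 43 members at 20 CPM in both comparisons, coloured by role. Dotted lines mark a 2-fold change; named members pass it on at least 1 axis, with Eif4e, Eif5b and Eif6 at the lower left and Eif4ebp1 at the upper right.

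Among the cap-binding proteins, Eif4e (chr3:138526179-138559696), which encodes the main cap-binding factor, had the lowest log2 change of all members at 20 CPM in control cells. Its lowest, median and highest cells were 597.9, 1455 and 2827 CPM in 8-cell control cells and 114.7, 353.7 and 955.5 CPM in 32-cell control cells. In the mimic groups they were 221.3, 822.4 and 1385 CPM at the 8-cell stage and 78.72, 355.4 and 937.8 CPM at the 32-cell stage. The 32-cell groups lay at the same level, and 35 of the 39 32-cell control cells were below every 8-cell control cell. Pooled, Eif4e was 1402 CPM (1390 to 1414) in 8-cell and 374.3 CPM (369.3 to 379.4) in 32-cell control cells, a 3.75-fold lower level and a log2 change of -1.90. In mimic cells it went from 846.8 to 365.8 CPM, a 2.31-fold lower level and a log2 change of -1.21.

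Eif4e2, which encodes a cap-binding protein that does not bind eIF4G well, stayed within the fold, at 178.9 and 144.7 CPM in control and 234.9 and 153.6 CPM in mimic cells. Eif4e1b, an oocyte form of eIF4E, had counts in 2 of 30 8-cell control cells and pooled to 1.23 CPM. It had counts in 1 cell of the 8-cell mimic group and 1 cell of the 32-cell control group, and none in 32-cell mimic cells, where 3 counts are worth 0.0563 CPM. Eif4e3 was found in 7 cells of each 8-cell group and in 3 and 5 cells of the 32-cell groups. Its pooled level in 8-cell mimic cells, 27.6 CPM, rested on 1 cell with 372.3 CPM, the cell with the fewest genes of the series. Without the 3 cells under 5000 genes the stage change of Eif4e3 in mimic cells was -1.61 in place of -3.41.

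The repressors of eIF4E differed in direction. Eif4ebp1 (chr8:27260329-27276674) had lowest, median and highest cells of 65.51, 244.6 and 676.4 CPM in 8-cell control and 249.1, 695.9 and 1160 CPM in 32-cell control cells. In mimic cells these were 135.7, 257 and 674.2 CPM at the 8-cell stage and 564.1, 957.1 and 1738 CPM at the 32-cell stage. Above every 8-cell cell of the same treatment were 22 of 39 control and 35 of 39 mimic cells. The pooled level was 271 CPM (265.7 to 276.4) and 672.6 CPM (665.9 to 679.4) in control, 2.48-fold higher, and 300.2 and 1012 CPM in mimic cells, 3.37-fold higher. Eif4ebp2 was lower at the 32-cell stage in control cells, with 77.7 against 32.0 CPM (log2 change -1.25), and its cells overlapped, since both groups held cells at 0. In mimic cells it was at 28.05 and 20.77 CPM, within the fold. Eif4enif1, which encodes an eIF4E transporter of oocytes and P-bodies, had log2 changes of -0.58 and -0.49.

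The ratio of Eif4ebp1 to Eif4e per kb, chosen after these values were seen, put the opposite changes in each cell. Its lowest, median and highest cells were 0.0714, 0.462 and 1.56 in 8-cell control cells and 0.877, 5.99 and 18.1 in 32-cell control cells. In mimic cells they were 0.279, 0.937 and 3.17 at the 8-cell stage and 3.01, 8.08 and 59.4 at the 32-cell stage. The ratio was above 1 in 4 of 30 and 11 of 24 cells at the 8-cell stage, and in 38 of 39 and 39 of 39 cells at the 32-cell stage. The ratio counts transcripts, not proteins, and does not include the phosphorylation that sets repressor activity.

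**Figure D2:**
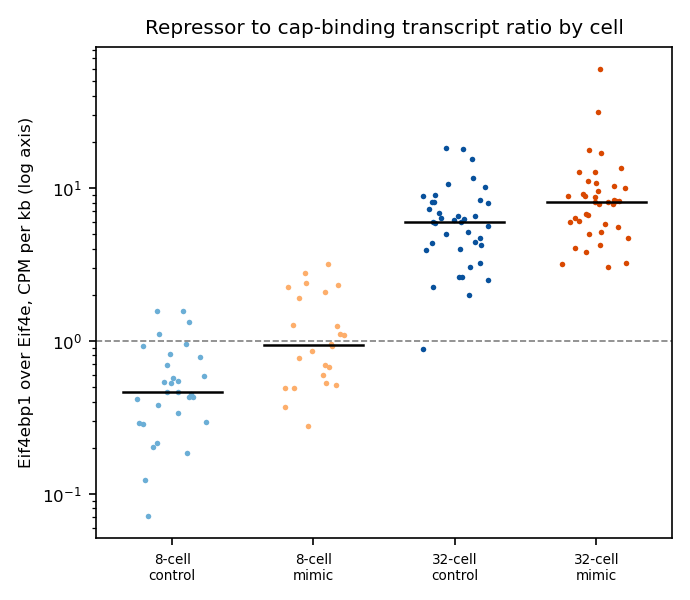
Ratio of Eif4ebp1 to Eif4e transcripts per kb of exon in each cell (log axis), by stage and treatment; black bars are medians and the dashed line marks a ratio of 1. The medians are 0.462, 0.937, 5.99 and 8.08 from left to right, with 1 32-cell control cell under the line.

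The late factors eIF5, eIF5B and eIF6 were also lower at the 32-cell stage. Eif6 (chr2:155819832-155826925) had lowest, median and highest cells of 743.1, 1004 and 1431 CPM in 8-cell control and 74.14, 355.5 and 550.8 CPM in 32-cell control cells, so the groups did not overlap. It was the only member whose control cells did not overlap between stages, against 0.576% of all genes at 20 CPM that did not overlap in the lower direction and 0.455% in the higher one, where no member stood. In mimic cells no member was without overlap, against 0.25% of genes in the lower and 0.224% in the higher direction. For Eif6 in mimic cells, 33 of 39 32-cell cells were below every 8-cell cell. Its pooled level was 1038 and 340.2 CPM in control, 3.05-fold lower, and 1019 and 356.7 CPM in mimic cells, 2.86-fold lower.

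Eif5b (chr1:37998010-38055579) was at 484.6 CPM in 8-cell and 161.7 CPM in 32-cell control cells, and at 546 and 180.6 CPM in mimic cells. The log2 changes were -1.58 and -1.59. The median cells were 495.3 and 124.5 CPM in control and 530.2 and 126.6 CPM in mimic cells, and the ranges overlapped. Eif5 (chr12:111538016-111546752) had the highest pooled level of these after Eif5a, with lowest, median and highest cells of 1586, 2132 and 4368 CPM in 8-cell control and 447.1, 860 and 2150 CPM in 32-cell control cells. In mimic cells these were 2273, 3075 and 5034 CPM and 670.3, 1497 and 2475 CPM. Thus 38 of 39 control and 35 of 39 mimic cells at the 32-cell stage were below every 8-cell cell of their treatment. The log2 change was -1.36 in control cells and -0.91, within the fold, in mimic cells. Within 32-cell control cells Eif5 was 731.1 CPM in the block of 24 cells and 1281 CPM in that of 15. Without the first of these blocks the control change of Eif5 was -0.94. Its 32-cell mimic blocks of 18, 12 and 9 cells were at 1469, 1428 and 2185 CPM, and without the last the mimic change was -1.11, past the fold.

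Eif5a did not follow its neighbours by name. It had lowest, median and highest cells of 2011, 2730 and 4084 CPM in 8-cell control, 1981, 3650 and 5586 CPM in 8-cell mimic, 2100, 3628 and 4240 CPM in 32-cell control and 2178, 3531 and 4588 CPM in 32-cell mimic cells. All 4 groups overlapped, and the stage changes were 0.37 in control and 0.02 in mimic cells. Its paralog Eif5a2 was found in 7 cells of each 8-cell group and in 2 and 3 cells of the 32-cell groups. It was past the fold in mimic cells (log2 change -3.44), where 1 8-cell cell at 660.1 CPM, the one with high Eif4e3, gave much of the level; without the 3 cells under 5000 genes the change was -2.29.

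**Figure D3:**
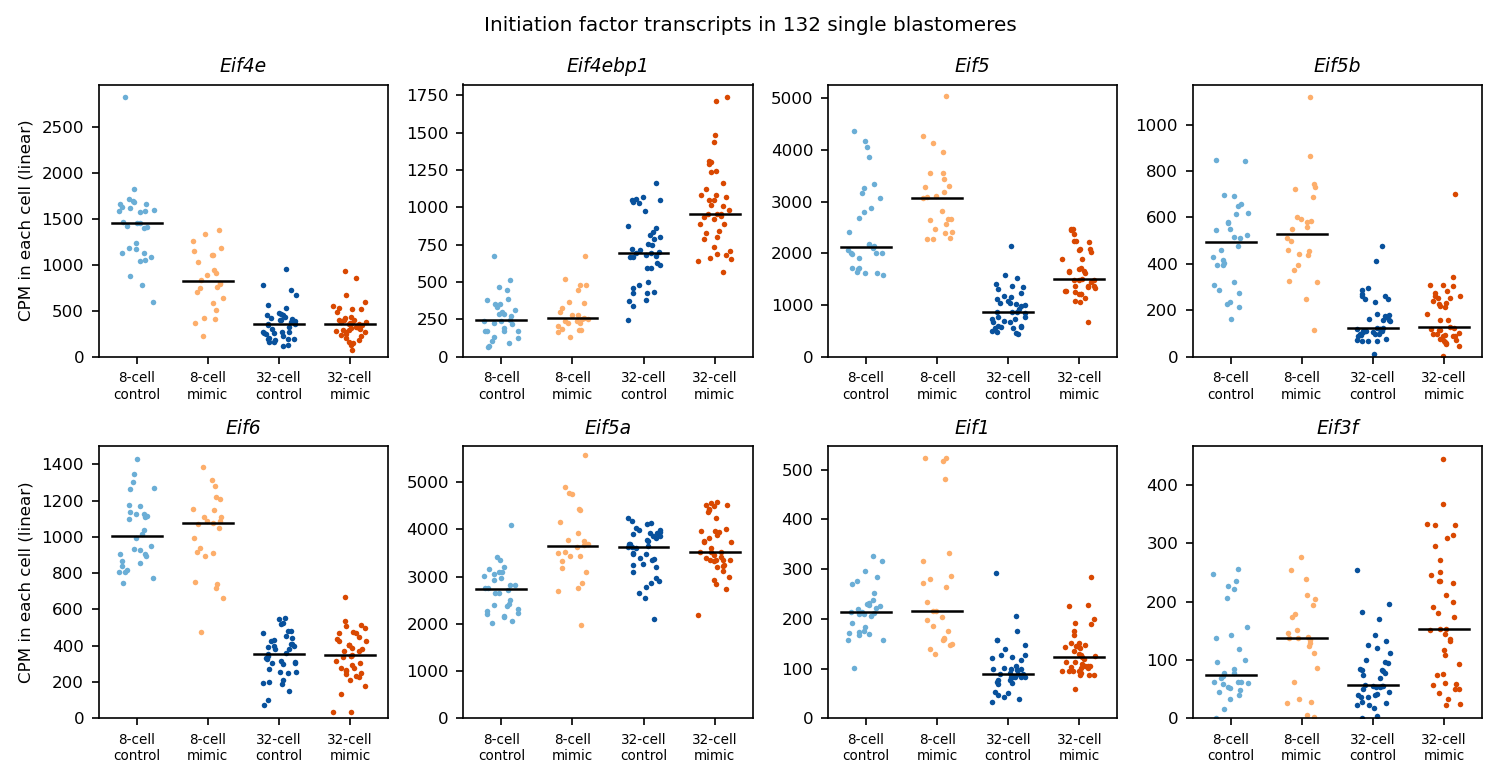
CPM of 8 members in each cell by stage and treatment, on linear axes from 0; black bars are the group medians. Eif4e, Eif5, Eif5b, Eif6 and Eif1 have lower medians at the 32-cell stage, Eif4ebp1 has higher ones, Eif5a overlaps in all groups, and Eif3f has its highest median in 32-cell mimic cells.

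eIF1 and eIF1A hold the scanning ribosome open. Of their genes Eif1, Eif1b and Eif1a and the related Eif1ad, only Eif1 was past the fold between stages, lower in 32-cell control cells. It was at 223.1 and 101.4 CPM in control (log2 change -1.13) and at 258.8 and 130.9 CPM in mimic cells (-0.98), where it stayed just within the fold. Without the block of 24 cells in the 32-cell control group, its control change was -0.82. Eif1b was at 25.83 and 14.98 CPM in control and at 14.78 and 20.66 CPM in mimic cells. Eif1ad was at 118.2 and 88.55 CPM in control and at 183.3 and 153.1 CPM in mimic cells. Eif1a, the member of this group with the highest pooled level, was at 643.4 and 644.1 CPM in control cells and at 523.4 and 597.4 CPM in mimic cells. Its sequence is close to that of the X-linked Eif1ax, so the division of reads between them is uncertain.

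The genes of eIF2 itself stayed within the fold between stages. Eif2s2, the beta subunit and the highest of its group, was at 1130 and 1301 CPM in control and at 1392 and 1037 CPM in mimic cells (log2 change -0.42). Its 32-cell mimic level was 729.5 CPM in the block of 18 cells and 1206 and 1246 CPM in those of 12 and 9, and without the first the change was -0.18. Eif2s1, the alpha subunit that the stress kinases phosphorylate, was at 720.8 and 717.5 CPM in control and at 710.8 and 674 CPM in mimic cells. Eif2d, which encodes a factor that delivers initiator tRNA without eIF2, was higher in both treatments, with 259.7 and 414.6 CPM (log2 change 0.67) in control and 187.2 and 404.4 CPM (1.11) in mimic cells. Only the second was past the fold, and it was 0.998 without the 3 mimic cells under 5000 genes.

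All 5 eIF2B subunits, which reload eIF2 with GTP, were below 0 in mimic cells and 4 of 5 in control cells, beside 44.4% and 44.5% of all genes, with medians of -0.49 and -0.94. Eif2b1, the highest of them, was at 465.9 and 238.1 CPM in control (-0.97) and at 532.5 and 253.6 CPM in mimic cells (-1.07). Eif2b3 was at 359.8 and 175.7 CPM in control (-1.03) and at 296.1 and 149.2 CPM in mimic cells (-0.98). These values lie next to the 2-fold limit, and leaving out single blocks of cells moved each of them to its other side. Summed over the 5 genes, the level went from 1311 to 792.8 CPM in control cells and from 1255 to 743.9 CPM in mimic cells.

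The eIF2 kinases were low. Eif2ak1, the heme-regulated kinase, was at 86.5 CPM in 8-cell and 84.6 CPM in 32-cell control cells (log2 change -0.03). In mimic cells it was 2.36-fold lower at the 32-cell stage, at 49.5 CPM (-1.22). Eif2ak4, which encodes the amino acid sensor GCN2, was at 9.69 and 37.6 CPM in control cells (1.85). Its 32-cell control level was 78.3 CPM in the block of 15 cells and 10.2 CPM in that of 24, and without the former the stage change was 0.07. Eif2ak2, the double-stranded RNA kinase PKR, had no count in the 54 8-cell cells and was at 3.71 and 7.21 CPM in the 32-cell groups, from 5 and 2 cells. Eif2ak3, the kinase PERK of the endoplasmic reticulum, was at 18.02 and 25.91 CPM in control and at 13.8 and 16.3 CPM in mimic cells.

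The 14 eIF3 genes, subunits of the factor that bridges mRNA and ribosome, mostly lay below 0: 11 of 13 at the filter in control and 9 of 12 in mimic cells, beside the same shares of all genes (44.5% and 44.4%), with medians of -0.52 and -0.42. Eif3c, the highest of them per kb and by pooled CPM in 8-cell control cells, was at 1320 and 667.8 CPM in control (-0.98) and at 1016 and 765.5 CPM in mimic cells (-0.41). Its 32-cell mimic blocks were at 930.7, 606.2 and 727.2 CPM. Eif3a was the only subunit past the fold, in mimic cells, with 1122 and 512.1 CPM (-1.13), and in control cells it was at 1106 and 690.4 CPM (-0.68). Without the block of 18 cells in the 32-cell mimic group the mimic change was -0.96. The summed level of the subunits was 5751 and 3835 CPM in control and 5368 and 3875 CPM in mimic cells.

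Among the helicases, the paralogs Eif4a1 and Eif4a2 stayed within the fold, whereas Eif4a3, which works in the exon junction complex, was lower. Eif4a1, the highest of the group, was at 870.8 and 951.8 CPM in control and at 1178 and 1003 CPM in mimic cells. Eif4a2 was at 607.9 and 782.1 CPM in control and at 698.9 and 785.6 CPM in mimic cells. Eif4a3 was at 431 and 208.1 CPM in control (-1.05) and at 472.2 and 245.1 CPM in mimic cells (-0.94). Its control change was -0.90 without the block of 15 control cells and just under 2-fold among Y-linked cells. The cofactors Eif4b and Eif4h had changes of -0.54 and -0.82 in control and -0.997 and -0.69 in mimic cells, all within the fold. Of the scaffolds, Eif4g2, which encodes the eIF4E-independent form DAP5 and was the highest, was at 1340 and 736.5 CPM in control (-0.86) and at 1721 and 1083 CPM in mimic cells (-0.67). Eif4g1 had changes of -0.94 and -0.75, and Eif4g3 was level when pooled, at 32.6 and 33.5 CPM in control and 42.6 and 41.2 CPM in mimic cells. By the median cell Eif4g3 went from 23.34 to 6.314 CPM in control and from 6.755 to 32.25 CPM in mimic cells.

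Next, the families of paralogs were examined for a switch between stages, set as a change of the leading gene in both treatments or a move of a share by 20 percentage points in both. Shares are of the family's summed CPM per kb. The Eif3j pair alone met the first condition, with its lead passing in opposite directions in control and mimic cells, and with all cells and these shares no family met the second. Eif4e led its family with 89.5%, 76.9%, 75.7% and 74.2% in 8-cell control, 8-cell mimic, 32-cell control and 32-cell mimic cells, and Eif4e2 gained 14.3 points in control and 7.88 points in mimic cells between stages. Eif4a1 held 60.0% to 67.5%, Eif4g2 60.6% to 67.7%, Eif4ebp1 87.1% to 98.3%, Eif1 77.3% to 90.4% and Eif5a 99.2% to 99.9% of their families.

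Among the kinases, the pooled share of Eif2ak1 fell by 18.3 points in control and fell by 26.4 points in mimic cells between stages. The control value depended on the block, left out as an alternative chosen after seeing the data: it fell by 9.0 points without the block of 15 cells and fell by 29.7 points without that of 24, so that the latter put it past the 20-point limit in both treatments. The mimic share fell by 23.6 to 28.2 points without each mimic block. By the median cell it went from 90.7% to 66.1% in control and from 96.2% to 82.2% in mimic cells, where that of Eif1 went from 93.4% to 78%. Without length scaling the pooled share of Eif2ak1 went from 75.7% to 55.7% in control cells, at the 20-point limit, or to 67.2% without the block of 15 cells, and from 88.4% to 61.3% in mimic cells, past the limit. The pooled gain was mostly Eif2ak4 in control, by 13.5 points, and it was absent without the block of 15 cells, where the share of Eif2ak4 was 5.96% beside 6.65% at the 8-cell stage. In mimic cells Eif2ak2, Eif2ak3 and Eif2ak4 gained 10.2, 9.61 and 6.62 points, all at low levels, and without the block of 9 cells Eif2ak2 gained 1.5 points. Eif2ak2 had counts in 2 of 39 cells of the 32-cell mimic group. Eif3j1 held 53.9% of its pair in 8-cell and 47.9% in 32-cell control cells, and 34.6% and 54.1% in the mimic groups. Without length scaling Eif3j1 led in all groups, with 56.5% to 74.3%, and with the median over cells it led in 32-cell control cells too, with 51.3%. It also led there, with 58.5%, without the block of 15 control cells, and without the block of 12 mimic cells it held 47.8% of the 32-cell mimic pair, so the passing of the lead rested on these blocks. As their sequences are nearly the same the division of reads between them is uncertain. With the length of the longest transcript the 32-cell control share of Eif4e was 63.9% and that of Eif4a1 51.0%, so shares near one another depend on the gene model.

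**Figure D4:**
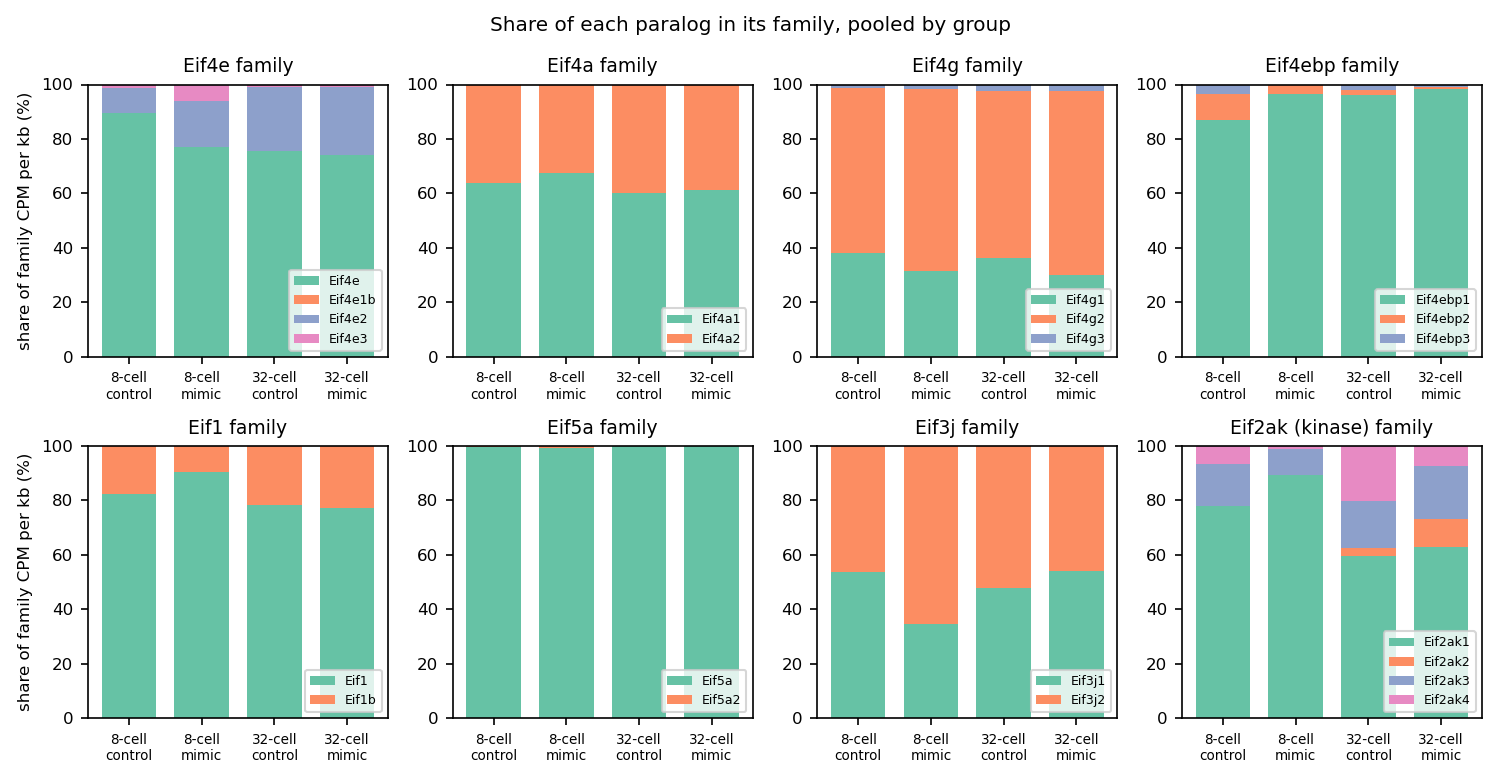
Share of each paralog in the summed CPM per kb of its family (%), pooled by stage and treatment, for 8 families; bars add to 100. The leading gene is the same in all groups except in the Eif3j pair, and the pooled share of Eif2ak1 among the kinases is lower at the later stage, at 78.1% and 89.2% in the 8-cell and 59.7% and 62.9% in the 32-cell groups.

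The stage changes were also seen in cells of 1 sex-linked kind. Among control cells with Y-linked genes above Xist, 7 at the 8-cell and 39 at the 32-cell stage, the changes of Eif4e, Eif5b, Eif6 and Eif4ebp1 were -1.86, -1.96, -1.55 and 1.53. Among mimic cells with Xist above the Y-linked genes, 14 and 39, they were -1.22, -1.71, -1.46 and 1.96. Against the 8-cell cells of the same treatment, Eif4ebp1 differed between the classes in control cells, with 806.7 CPM (change 1.57) in the ICM-like and 493.2 CPM (0.86) in the TE-like class. In mimic cells its changes were 1.76 and 1.74. Eif4e was close in both classes, at 378.4 and 368.9 CPM in control and 340.1 and 376.8 CPM in mimic cells. The summed level of 8 oocyte and cleavage-stage markers was 2003 and 1717 CPM in the 8-cell groups and 8.74 and 46.8 CPM in the 32-cell groups. It was mostly that of Obox6, at 1916 and 1671 CPM and then 7.77 and 44.1 CPM, and each of the others was at 66.7 CPM or less. Between 4 and 6 of the 8 were detected in a group, Zscan4d in none, and their part in the changes was not tested.

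The second question was whether the mimic altered these transcripts at a given stage. At the 8-cell stage 2 of the 46 members at 20 CPM were at least 2-fold higher with the mimic, against 6.96% of all 6570 genes, and 1 was at least 2-fold lower, against 6.09%. At the 32-cell stage 1 of 45 was higher, against 6.87% of 7307 genes, and 1 was lower, against 5.36%. The members' shares were at or under these backgrounds. Their median changes, 0.04 and 0.09, lay beside 0.03 and 0.01 for all genes, and in no member were the cells of mimic and control groups without overlap, against 0% of all genes in each direction at the 8-cell stage and 0.0137% in each direction at the 32-cell stage.

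**Figure D5:**
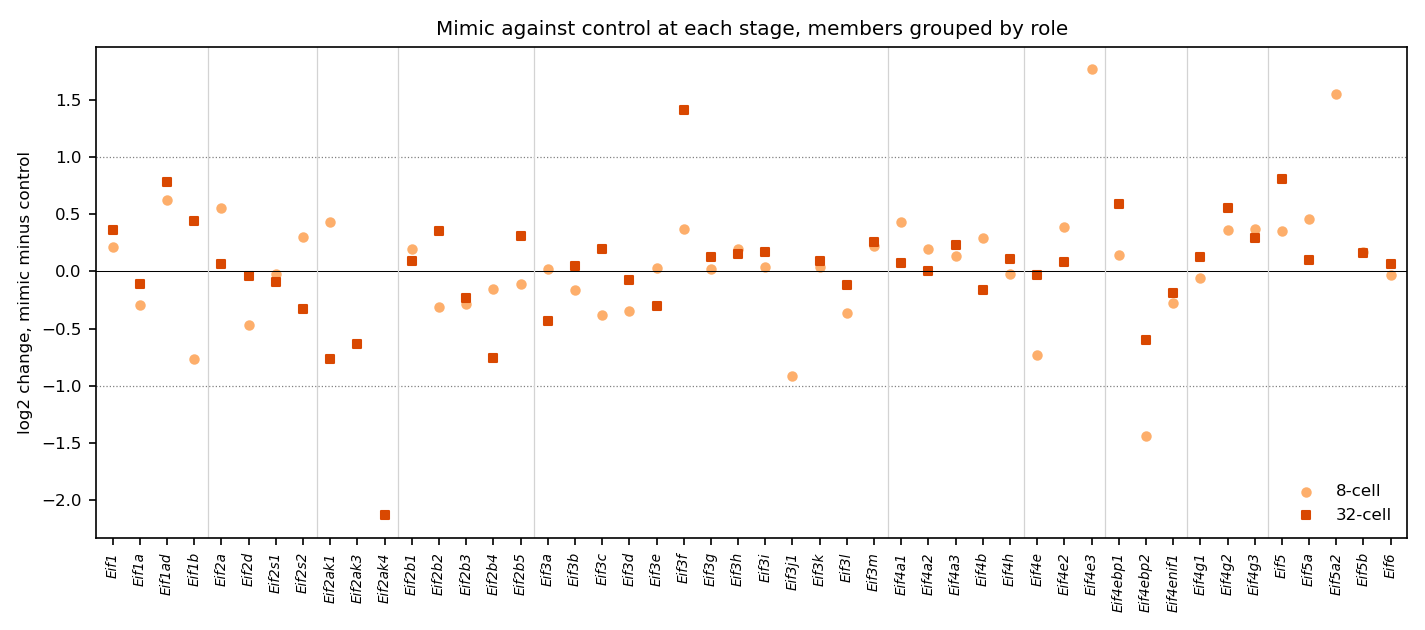
Log2 change of mimic over control for each member at 20 CPM, at the 8-cell stage (circles) and the 32-cell stage (squares), ordered by role with grey lines between roles. Dotted lines mark a 2-fold change; Eif4e3, Eif5a2 and Eif4ebp2 lie outside at the 8-cell stage and Eif3f and Eif2ak4 at the 32-cell stage.

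At the 8-cell stage Eif4ebp2, a repressor of eIF4E with an 8-base seed match, was the member below the fold. Its lowest, median and highest cells were 0, 71.31 and 221.3 CPM in control and 0, 4.893 and 188.7 CPM in mimic cells, and 27 of 30 and 18 of 24 cells had a count. The pooled level was 77.7 CPM (74.8 to 80.6) in control against 28.05 CPM (26.21 to 29.98) in mimic cells, 2.77-fold lower. The change was -1.25 among Y-linked cells, -1.32 among Xist cells and -1.24 without the mimic cells under 5000 genes. At the 32-cell stage Eif4ebp2 was at 32.0 and 20.8 CPM (-0.60), with -0.66 in the ICM-like and -0.64 in the TE-like class.

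The members above the fold at the 8-cell stage, Eif4e3 and Eif5a2, rested on 1 cell. Eif4e3 was at 7.40 CPM in control against 27.6 CPM in mimic cells (1.77), and Eif5a2 at 20.0 and 60.4 CPM (1.55). Without the mimic cells under 5000 genes the changes were -0.03 and 0.41, and no member was then at least 2-fold higher.

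Eif4e, which holds a 7-base match, was lower with the mimic at the 8-cell stage but within the fold, with 1402 and 846.8 CPM (-0.73). Of the 24 mimic cells, 6 were below every control cell. The change was -0.93 among Y-linked and -0.73 among Xist cells. At the 32-cell stage the difference was -0.03. Eif5a was higher at the 8-cell stage, with 2694 and 3700 CPM (0.46), and 7 mimic cells were above every control cell. Those cells were number 75 and the adjacent title numbers 81 to 86, and the labels do not tell whether adjacent cells shared an embryo. Among Y-linked cells Eif5a was at 2221 CPM in control cells and 4447 CPM with the mimic, at the 2-fold limit. Among Xist cells the change was 0.29.

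At the 32-cell stage Eif3f, an eIF3 subunit, was 2.68-fold higher with the mimic. Its lowest, median and highest cells were 0, 57.73 and 254.1 CPM in control and 22.26, 153.4 and 444.9 CPM in mimic cells, and 9 mimic cells were above every control cell. The pooled level was 71.7 CPM (69.5 to 73.9) and 192.2 CPM (188.5 to 196.0). It was at 80.97 and 65.46 CPM in the blocks of control cells and at 175.9, 142.9 and 266.5 CPM in the blocks of mimic cells. Within ICM-like cells the change was 1.12 and within TE-like cells 1.69. At the 8-cell stage it was 0.37, and the other eIF3 subunits at 20 CPM were between -0.43 and 0.26 at the 32-cell stage.

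Eif2ak4 was lower with the mimic at the 32-cell stage, with 37.6 and 7.79 CPM (-2.13), and without the block of 15 control cells the change was -0.35. Eif5 was at 952.2 CPM in control against 1669 CPM in mimic cells (0.81), and 7 mimic cells were above every control cell. Without the block of 15 control cells the change was 1.19, past the fold, and without the block of 24 it was 0.38. Eif4ebp1 was at 672.6 and 1012 CPM (0.59), with a change of 0.34 in the ICM-like and 1.03 in the TE-like class. Over the members at 20 CPM, the median change was 0.14 in the ICM-like and -0.01 in the TE-like class, beside 0.03 and 0.04 for all genes. These differences run along with the Xist difference between the 32-cell groups, with which they cannot be told apart.

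The members with a 7-base seed match were not lower as a group with the mimic. At the 8-cell stage 8 of 10 were above 0, beside 19 of 36 members without a match and 486 of all 936 genes with one. The medians were 0.21, 0.03 and 0.02 in the same order. At the 32-cell stage 6 of 9 were above 0, beside 22 of 36 members without a match and 483 of all 1010 genes with one. There the medians were 0.08, 0.09 and -0.03. The 8-base matches differed among themselves, since Eif4ebp2 was at -1.44 at the 8-cell and -0.60 at the 32-cell stage, Eif1 at 0.21 and 0.36 and Eif4g3 at 0.38 and 0.29.

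Other genes of the pathway, a list of 31 such as cap complex partners, ribosome recycling factors and regulators of the eIF2 and mTOR branches, were counted in the same way. In control cells 6 of 29 at 20 CPM were at least 2-fold lower at the 32-cell stage (beside 20.1% of all genes) and 3 were higher (beside 30%). In mimic cells 4 of 29 were lower (beside 18.8%) and 4 were higher (beside 29.1%). Past the fold in both treatments, for which no share of all genes was computed, were Paip2b, Abcf1 and Metap2, all lower, and Pdcd4, which was higher. Pdcd4, which encodes an inhibitor of eIF4A, was at 26.4 and 195.2 CPM in control (change 2.84) and at 56.4 and 188.3 CPM in mimic cells (1.72). Its median cell was at 23.04 CPM in 8-cell and 150.6 CPM in 32-cell control cells. Paip2b, which encodes an inhibitor of the poly(A)-binding protein, was at 216.1 and 54.3 CPM in control (-1.97) and at 212.4 and 20.0 CPM in mimic cells (-3.35). Metap2, a methionine aminopeptidase, was at 1267 and 511.7 CPM (-1.31) and at 1222 and 515 CPM (-1.25), and Abcf1, an eIF2-interacting ATPase, at 332.9 and 144.7 CPM (-1.20) and at 427.8 and 149.1 CPM (-1.52). With the mimic, 1 of 29 was higher at the 8-cell stage (beside 6.96% of all genes) and none was lower (beside 6.09%). Of 30 in 32-cell embryos, 1 was higher (beside 6.87%) and 1 was lower (beside 5.36%).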

How the data were processed

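The authors deposited a table of expected counts per gene for 132 mouse cells, made per the labels and the study's methods with STAR 2.5.1b and RSEM 1.3.0 on mm10 after Smart-seq2; its values are whole numbers. They kept cells with at least 3000 genes and at most 10% mitochondrial reads, and all deposited cells passed both limits. RSEM shares ambiguous reads between similar genes, so near-identical copies are uncertain.

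Here counts were summed per stage and treatment, without the 13 mitochondrial genes, and scaled to CPM. Log2 changes used a pseudocount of 1 CPM, a filter of 20 CPM in either group and a limit of 2-fold. The computation of log2 changes and intervals was checked on counts simulated with Poisson spread only, which does not cover the spread between real cells. With 1 sample a group there was no test and no p-value, and with no doublet call the hand-picked cells were used as deposited. Lengths and 3′ UTRs came from GENCODE M21 (GRCm38), which is not the release the authors used. 32-cell classes came from Seurat 5.3.0 (resolution 0.6, 2000 variable genes, 25 components) without the members. Named were the paralog families, each member past the fold and the highest of each role. The members and lists were chosen with earlier results of these data known. Tools were Python 3.11.15, numpy 2.4.6, pandas 2.3.3, scipy 1.17.1 and R 4.3.3. The median total of counts per cell was 1232013 in 8-cell control, 1280604 in 8-cell mimic, 1339189 in 32-cell control and 1212134 in 32-cell mimic cells.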

Additional observations from a re-analysis of the deposited data

How the results depend on the processing

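The count of members past the fold was recomputed with the mean of the cells' CPM, median-ratio scaling, mitochondrial genes kept, other filters and pseudocounts, thinned cells and left-out blocks of cells. With a 1.5-fold limit it was 24 and 21 between stages in control and mimic cells (10 and 10 at 2-fold) and 7 and 9 for the mimic at the 8-cell and the 32-cell stage (3 and 2 at 2-fold). At 1.5-fold, 39.9% of all genes were higher and 28.8% lower between stages in control cells, and 39.7% and 28.5% in mimic cells. For the mimic, 16.7% and 15% of all genes were higher and lower at the 8-cell stage, and 16.3% and 14.7% at the 32-cell stage. For the mimic at the 8-cell stage the count of members was 5 of 53 with no filter, where 5.75% of all genes were higher and 6.3% lower. In Y-linked cells alone it was 7 of 44, beside 17.5% and 19.7% of all genes. Without the mimic cells under 5000 genes, an alternative chosen after seeing the data, it was 1 of 45, beside 6.57% and 5.97%. For the mimic at the 32-cell stage the count was 1 of 40 with a filter of 50 CPM, beside 4.4% and 3.74%. Under the remaining alternatives each count stayed within 1.5 times. The mimic change at the 8-cell stage turned for Eif4e3 to -0.25 and for Eif5a2 to -4.49 in Y-linked cells alone, for Eif4e3 to -0.034 without the cells under 5000 genes. With each cell left out in turn, also chosen after seeing the data, the Eif4e3 change ran from -0.054 to 2.31. The median mimic change of the members at the 32-cell stage was -0.02 without the block of 12 mimic cells. The stage changes of Eif4e, Eif5b, Eif6 and Eif4ebp1 stayed past 2-fold under each of these alternatives; with 32-cell control cells limited to the TE-like ones that of Eif4ebp1 was 0.86. Leaving out the block of 28 8-cell control cells was not run, since 2 cells would remain. No paired analysis was possible because the labels name no embryo. The cause of these moves was not tested, and with 3 to 5 embryos a group the spread between embryos is not known.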
